A study of Homo sapiens with 4 samples.

Results

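The 9 genes described here are regulators and transcriptional targets of the tumour suppressor p53, namely MDM2, MDM4, CDKN1A, GDF15, BTG2, TP53I3, ZMAT3, RRM2B and FDXR. They were picked by gene symbol, with earlier results of these data known. They were 9 of the 13036 genes, and 40 of the 38510 annotated transcripts, listed in the data. RNA-seq was performed in HCCLM3, a human hepatoma cell line, infected with a lentivirus that expressed either a control short hairpin RNA (shCtrl, 2 libraries) or a hairpin against KIAA1429 (shKIAA1429, 2 libraries). All 4 libraries thus came from lentivirus-infected cells of 1 line, no other treatment was named, and 1 hairpin group stood for the knockdown of KIAA1429. KIAA1429, listed under its symbol VIRMA, belongs to the complex that writes N6-methyladenosine on RNA. The sources do not say whether the 2 replicates of a group were separate cultures, so the spread between these libraries may be technical. Each p-value rests on that spread, taken in part from the gene or transcript itself and in part from all those tested.

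p53 is a transcription factor that binds DNA as a tetramer when DNA is damaged or the cell is otherwise stressed. It switches on genes that stop the cell cycle, repair DNA, change metabolism or start cell death. Among them is MDM2, whose protein ubiquitinates p53 and closes a negative feedback loop, while the related MDM4 masks the activation domain of p53. In hepatocytes the pathway is known for restraining growth after genotoxic injury, and it is often altered in liver cancer.

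Every value is an FPKM, that is a fragment number corrected for transcript length and library total, as deposited by the authors for each transcript. A gene's level is the sum over its listed transcripts. Fold changes put shKIAA1429 over shCtrl after taking log2(FPKM + 1), a scale that compresses changes of low genes, and come from limma fitted across the 11657 genes that reached 1 FPKM or more in 2 or more libraries. All 9 genes passed that filter, as did 28 of their 40 transcripts. A gene was called changed at an adjusted p under 0.05 together with an absolute log2 fold change over 1. The summed FPKM per library lay between 370253 and 390224, and read depth is unknown, so no counting error could be given for single values. In bulk RNA, fewer cells expressing a gene and less RNA per cell cannot be told apart.

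The targeted gene was examined first. VIRMA was listed at 9.37 and 14.1 FPKM in shCtrl replicates 1 and 2, and at 6.90 and 8.52 FPKM in shKIAA1429 replicates 1 and 2. Both shKIAA1429 libraries lay below both shCtrl libraries, with a log2 fold change of -0.53 (SE 0.24) that did not pass the test (limma, adjusted p = 0.917). The values did not go against the labels, but a fall of VIRMA was not shown beyond the spread between libraries. Of 10 hepatocyte and hepatoma markers only the epithelial keratin KRT18, at 971 to 1073 FPKM, and SERPINA1, at 3.34 to 5.63 FPKM, were among the listed transcripts. ALB, AFP, APOA1, APOB, TTR, FGB, TF and HNF4A were not listed, and every listed transcript reached at least 0.504 FPKM in 1 library. The hepatocyte identity of the line thus rests on its label and was not tested. Of 5 leukocyte markers CD68 was listed, at 44.1 to 52.3 FPKM. None of 4 endothelial markers was listed, and of 4 fibroblast markers COL1A1 was the highest in 3 libraries, reaching 6.76 FPKM, with PDGFRB between 3.99 and 5.14 FPKM and DCN at or under 1.06 FPKM. The part of these cell types in the results was not tested.

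None of the 9 genes passed the test. The background for each count was as follows: of all genes tested 0.0% were called changed, 1.07% had an absolute log2 fold change over 1, and 5.63% had an unadjusted p under 0.05 (656 genes). None of the 9 genes met any of these criteria. Both shKIAA1429 libraries stood above both shCtrl libraries for 4 of the 9 genes, MDM2, ZMAT3, RRM2B and FDXR, against 16.9% of all genes, and below for 0 of the 9, against 16.7%. The median log2 fold change over the 9 genes was 0.13, beside -0.01 over all genes. Of the 9, 7 genes were above 0 and 2 below, while 48.1% of all genes tested were above 0. The 95% interval of the log2 fold change lay within 1 of 0 in either direction for 8 of the 9 genes, and for 84.5% of all genes tested. An exact permutation test of 2 libraries against 2 cannot give a two-sided p below 0.333, so none was used for single genes.

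The levels spanned a wide range. GDF15 and CDKN1A were highest, with means over the 4 libraries of 184.7 and 158.7 FPKM, at the 98.1 and 97.8 percentiles of the genes tested. Their ranges overlapped, GDF15 being the higher in 2 of 4 libraries. MDM2, FDXR and TP53I3 followed at 22.4, 21.0 and 20.7 FPKM and could not be ordered among themselves. BTG2 and MDM4, at 8.51 and 8.04 FPKM, overlapped each other, as did ZMAT3 and RRM2B at 5.10 and 4.96 FPKM. These 4 tiers of summed FPKM did not overlap between neighbouring tiers. FPKM is scaled to transcript length, so a sum over forms of unlike length depends on which forms are listed. The place of MDM4 rested on its processed transcripts. Its protein-coding forms alone summed to 2.59 to 4.14 FPKM, below each library of ZMAT3 (4.46 to 5.69 FPKM) and RRM2B (4.48 to 5.39 FPKM).

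**Figure D1:**
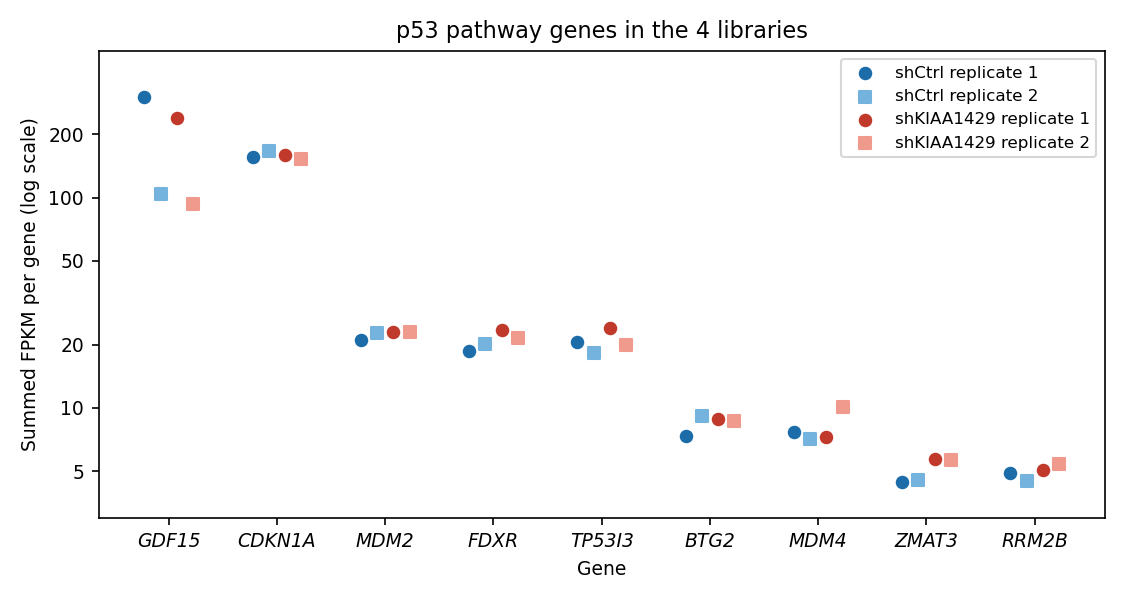
Summed FPKM (log axis) of the 9 p53 pathway genes in the 4 libraries, ordered by mean level, with 1 point per library and no error bars. The replicates of GDF15 lie far apart, at 302.8 and 103.7 FPKM in shCtrl against 238.7 and 93.5 FPKM in shKIAA1429, while the points of CDKN1A lie between 153.3 and 166.7 FPKM.

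Sequence is given first for the genes with a match to the p53 motif near a listed start, because p53 is known to bind DNA at elements of this form. Whether p53 acts on each gene through the match printed was not tested. The reference genome GRCh37, the build of the files, was searched on both strands from 2500 bases before to 1000 bases after each listed transcript start for the consensus p53 element, a pair of directly adjacent half-sites of 20 bases in all, allowing 2 mismatches. At least 1 match lay near 22 of 38 starts, those of 6 of the 9 genes. Over all 36582 starts of listed transcripts, 7.84% had such a match and 0.0437% had one without mismatch, and the starts of 1 gene share much of their window. The best match of ZMAT3 had 4 mismatches, and those of RRM2B and FDXR had 3. A match is a run of letters and no evidence of binding in these cells.

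The matches are printed 5′ to 3′ on the strand named, and the capitals mark the core 4 bases of each half-site. The positions are chr12:69202703-69202722 (plus strand) for MDM2, chr1:204486061-204486080 and chr1:204494174-204494193 (plus) for MDM4, chr6:36644226-36644245 and chr6:36645108-36645127 (plus) for CDKN1A, chr19:18496118-18496137 (plus) for GDF15, chr1:203272770-203272789 (plus) for BTG2 and chr2:24309651-24309670 (minus) for TP53I3.
MDM2: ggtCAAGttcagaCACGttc
MDM4, first: gtgCTTGtttgaaAATGctt
MDM4, second: agaCATGttccaaCATGttg
CDKN1A, distal: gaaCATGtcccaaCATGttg
CDKN1A, proximal: gaaGAAGactgggCATGtct
GDF15: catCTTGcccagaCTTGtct
BTG2: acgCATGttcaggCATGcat
TP53I3: ataCATCctcagaCATGttt
The distal CDKN1A element, the second MDM4 match and the BTG2 match held CATG in both half-sites.

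MDM2 and MDM4 are the negative regulators of p53. MDM2 (ENSG00000135679, chromosome 12, 69201956 to 69244466, plus strand) was listed at 21.0 and 22.7 FPKM in shCtrl replicates 1 and 2, and at 23.0 and 22.9 FPKM in shKIAA1429 replicates 1 and 2. Both shKIAA1429 libraries were the higher, by less than 1 FPKM over shCtrl replicate 2. The log2 fold change was 0.07 (SE 0.13, 95% interval -0.27 to 0.41, limma adjusted p = 0.995). Of its 7 listed transcripts, MDM2-202 took 54.2 to 66.3% of the gene's level. MDM2-206 was listed at 2.36 and 2.11 FPKM in shCtrl against 5.11 and 2.22 FPKM in shKIAA1429, so that 1 library stood apart. The p53 match printed for MDM2 lay 94 bases before the start of MDM2-211 and 101 before that of MDM2-212, near the internal promoter through which p53 is known to act on this gene, and 747 bases after the start of MDM2-202. The transcripts that began nearest after it were low, MDM2-212 at 2.43 to 3.06 FPKM and MDM2-211 at 0.464 to 0.715 FPKM, and the groups of both overlapped. MDM2-206 and MDM2-203 share a start 289 bases after that of the match. They stood at 2.11 to 5.11 and 0.308 to 1.08 FPKM, and their groups overlapped too. Of the exonic bases, 94.7% of MDM2-212, 99.2% of MDM2-211 and 100% of MDM2-206 and MDM2-203 are shared with other listed forms. The division of reads among the forms is therefore uncertain, and the use of each promoter was not tested. In the annotation, the listed exons of MDM2 share 785 of 7653 bases with the opposite-strand gene ENSG00000257181, 439 with ENSG00000256664 on the same strand and 133 with CPM on the opposite strand. The strand setting of the quantification is not given in the sources used here, so reads of these genes may not be separable.

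MDM4 (ENSG00000198625, chromosome 1, 204485507 to 204527248, plus strand) was listed at 7.67 and 7.13 FPKM in shCtrl against 7.25 and 10.1 FPKM in shKIAA1429. Only shKIAA1429 replicate 2 stood above the others, and the groups overlapped (log2 fold change 0.19, SE 0.20, 95% interval -0.32 to 0.70, limma adjusted p = 0.987). By FPKM, forms listed as processed transcripts, MDM4-210 and MDM4-208, together took 59.1 to 65.7% of the level. FPKM is scaled to length, and these 2 forms have only 909 and 582 exonic bases, so this is not their share of the reads. MDM4-210 was steady, at 2.61 and 2.60 FPKM in shCtrl against 2.72 and 2.74 FPKM in shKIAA1429. The coding transcripts were less so, and their sum was 2.63 and 2.90 FPKM in shCtrl against 2.59 and 4.14 FPKM in shKIAA1429. MDM4-217 was listed at 0 in replicate 1 of both groups and at 1.07 and 1.73 FPKM in replicates 2 of shCtrl and shKIAA1429. MDM4-203, which has 10050 exonic bases, was at 1.54 FPKM in shCtrl replicate 1 and between 0.424 and 0.481 FPKM in the other libraries. Because 99.7% of the exonic bases of MDM4-203, 55.6% of MDM4-210 and 62.7% of MDM4-208 are shared with other listed transcripts, their values are not independent.

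CDKN1A and BTG2 are targets that stop the cell cycle. CDKN1A (ENSG00000124762, chromosome 6, 36644237 to 36655116, plus strand) encodes p21, which inhibits cyclin-dependent kinases. Its level was 155.8 and 166.7 FPKM in shCtrl against 158.9 and 153.3 FPKM in shKIAA1429. The 4 libraries differed by at most 1.09-fold, and the groups overlapped (log2 fold change -0.05, SE 0.11, 95% interval -0.33 to 0.24, limma adjusted p = 0.999). By the distance between deviations of log2(FPKM + 1) over the 4 libraries, the nearest genes were MRPL41 at 0.0139, RAB5A at 0.0161 and ZBTB39 at 0.0173, beside a median of 0.334 over all genes. The same measure for MDM2 gave, among its nearest genes, LRRC37A at 0.00983 and CAMK2G at 0.0152, beside a median of 0.337. The nearest genes were picked for the smallest distance, so they lie below the median by construction, and shared regulation was not tested.

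Although the total of CDKN1A was steady, 2 of its transcripts differed widely between libraries, and in opposite directions. CDKN1A-203 was listed at 91.0 and 75.0 FPKM in shCtrl against 20.8 and 90.0 FPKM in shKIAA1429. CDKN1A-208 was listed at 25.0 and 47.9 FPKM in shCtrl against 96.2 and 22.8 FPKM in shKIAA1429. In shKIAA1429 replicate 1 the order of the pair was reversed, whereas shKIAA1429 replicate 2 resembled shCtrl replicate 1. Their sum was 116.0, 122.9, 117.0 and 112.7 FPKM in shCtrl replicates 1 and 2 and shKIAA1429 replicates 1 and 2, of which CDKN1A-208 held 21.5, 39.0, 82.2 and 20.2%. Neither passed the test over 24996 transcripts (log2 fold change -0.91, SE 0.76, limma adjusted p = 0.975 for CDKN1A-203, and 0.43, SE 0.82, adjusted p = 1.00 for CDKN1A-208). The exons of both overlap in 2037 bases, with 230 bases found in CDKN1A-203 and not in CDKN1A-208, and 65 the other way. The division of reads between them therefore rests on few bases. Their starts lie 2250 bases apart, and the distal p53 element printed for CDKN1A begins 11 bases before the start of CDKN1A-208 and 2261 bases before that of CDKN1A-203. The third abundant form, CDKN1A-201, was at 33.9 and 35.6 FPKM in shCtrl against 32.3 and 32.6 FPKM in shKIAA1429, the groups not overlapping (log2 fold change -0.10, SE 0.12, limma adjusted p = 0.994). The remaining forms, CDKN1A-206, CDKN1A-202 and CDKN1A-207, stayed at or under 6.58 FPKM.

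**Figure D2:**
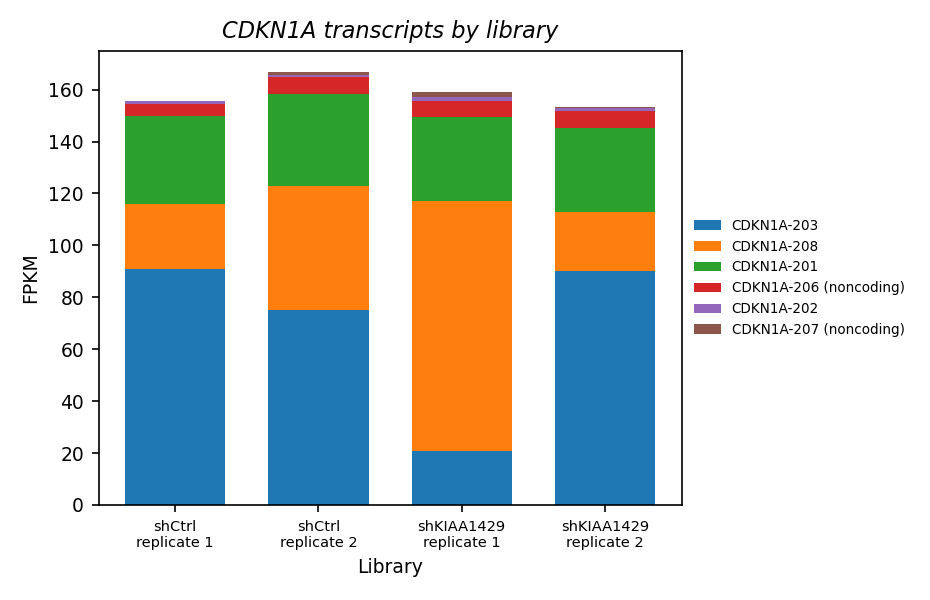
Stacked FPKM of the 6 listed CDKN1A transcripts in each library, 1 bar per library starting at 0, without error bars. The bar heights lie between 153.3 and 166.7 FPKM, while CDKN1A-208 takes 96.2 FPKM in shKIAA1429 replicate 1 and 22.8 to 47.9 FPKM in the other libraries.

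BTG2 (ENSG00000159388, chromosome 1, 203274664 to 203278730, plus strand), an antiproliferative partner of the CCR4-NOT deadenylase, was listed as a single transcript. Its level was 7.32 and 9.14 FPKM in shCtrl against 8.89 and 8.70 FPKM in shKIAA1429. The shKIAA1429 values lay between the shCtrl values (log2 fold change 0.09, SE 0.17, 95% interval -0.34 to 0.52, limma adjusted p = 0.993). Its p53 match began 1894 bases before the start.

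GDF15, a secreted stress cytokine of the TGF-beta family, differed more between replicates than between groups. The gene (ENSG00000130513, chromosome 19, 18492980 to 18499986, plus strand) was listed at 302.8 and 103.7 FPKM in shCtrl against 238.7 and 93.5 FPKM in shKIAA1429. Replicate 1 was 2.92 times replicate 2 in shCtrl and 2.55 times in shKIAA1429. The within-group SD on the log2 scale was 1.02, at the 99.3 percentile of all genes tested. The log2 fold change was -0.24 (SE 0.66, 95% interval -1.96 to 1.47, limma adjusted p = 0.999), an interval that holds both a halving and a doubling. It was the only one of the 9 genes whose interval reached past 1 in either direction. GDF15-201 took 94.4 to 98.2% of the level. The minor GDF15-203, whose start lies upstream of the main one, was at 0.165 and 3.48 FPKM in shCtrl against 4.61 and 3.52 FPKM in shKIAA1429 (log2 fold change 1.14, SE 0.74, limma adjusted p = 0.973). The p53 match began 850 bases before GDF15-201.

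TP53I3, RRM2B and FDXR encode enzymes, and ZMAT3 an RNA-binding protein. TP53I3 (ENSG00000115129, chromosome 2, 24300303 to 24308085, minus strand), a quinone oxidoreductase linked to reactive oxygen species, was listed at 20.5 and 18.2 FPKM in shCtrl against 23.9 and 20.003 FPKM in shKIAA1429. The groups overlapped (log2 fold change 0.17, SE 0.16, 95% interval -0.25 to 0.59, limma adjusted p = 0.981). TP53I3-204, whose 5′ end is marked as incomplete in the annotation, ranged from 3.99 FPKM in shCtrl replicate 2 to 9.77 FPKM in shKIAA1429 replicate 1, while TP53I3-202 lay between 6.49 and 8.29 FPKM. The p53 match began 1585 bases before TP53I3-202. The exons share 80 of 2107 bases (3.80%) with FAM228B on the opposite strand, which was also listed.

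FDXR (ENSG00000161513, chromosome 17, 72858619 to 72869156, minus strand), the mitochondrial ferredoxin reductase, was listed at 18.8 and 20.2 FPKM in shCtrl against 23.5 and 21.6 FPKM in shKIAA1429. Both shKIAA1429 libraries were the higher (log2 fold change 0.20, SE 0.14, 95% interval -0.15 to 0.56, limma adjusted p = 0.960). Its 8 transcripts differed in direction. FDXR-219 was at 2.32 and 1.78 FPKM in shCtrl against 5.99 and 6.24 FPKM in shKIAA1429 (log2 fold change 1.23, SE 0.20, limma adjusted p = 0.310). FDXR-217 was at 3.03 and 0.879 FPKM in shCtrl against 4.83 and 4.64 FPKM in shKIAA1429 (1.06, SE 0.44, adjusted p = 0.892). In both, the shKIAA1429 libraries lay above the shCtrl libraries. FDXR-205 lay the other way, at 1.29 and 3.51 FPKM in shCtrl against 0.0275 FPKM and 0 in shKIAA1429 (log2 fold change -1.66, SE 0.40, limma adjusted p = 0.538). FDXR-201, with the highest mean, was at 7.89 and 6.78 FPKM in shCtrl against 7.73 and 3.30 FPKM in shKIAA1429. All exonic bases of FDXR-219 and FDXR-217 are shared with other listed forms, so the division of reads among them is uncertain.

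Over the 28 transcripts tested, none was called changed. The background was 0.0% of the 24996 transcripts tested, 7.23% with an absolute log2 fold change over 1 and 6.28% with an unadjusted p under 0.05. Of the 28, 4 had an absolute log2 fold change over 1, namely FDXR-219, FDXR-217, FDXR-205 and GDF15-203, and FDXR-219 and FDXR-205 had an unadjusted p under 0.05. Both shKIAA1429 libraries lay above both shCtrl libraries for 8 of the 28, against 16.7% of all transcripts, and below for 2, against 16.8%. The 12 transcripts not tested stayed at or under 3.31 FPKM.

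**Figure D3:**
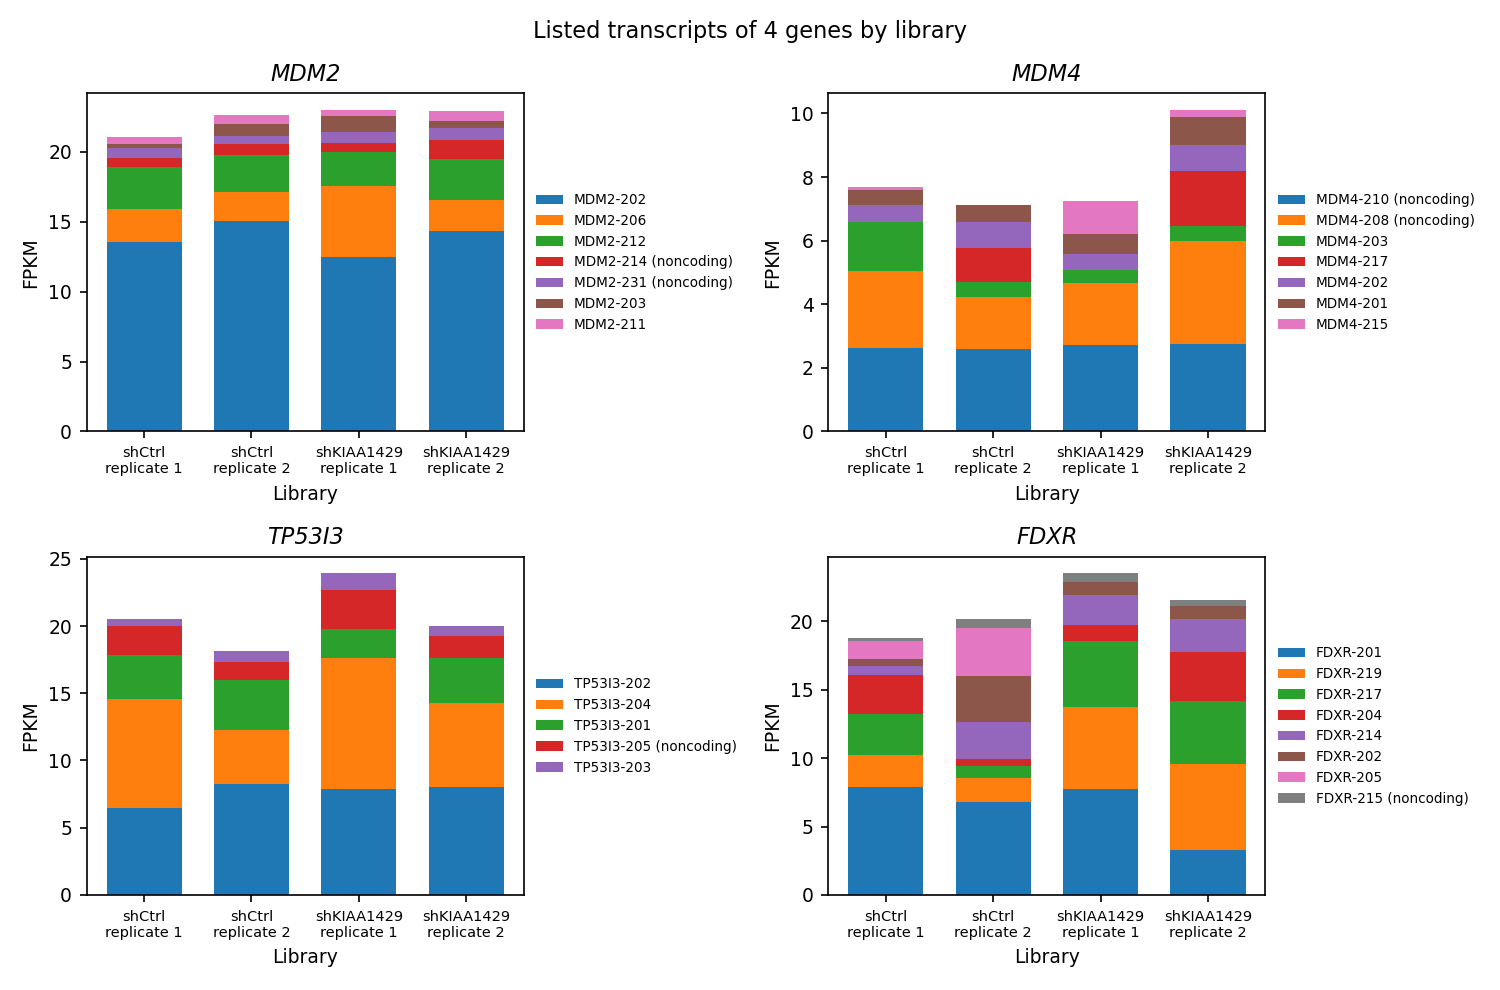
Stacked FPKM of the listed transcripts of MDM2, MDM4, TP53I3 and FDXR, 1 bar per library starting at 0 and 1 colour per transcript, without error bars. MDM2-202 is the largest form of MDM2 in each library, at 54.2 to 66.3% of the level, and FDXR-219 is thicker in both shKIAA1429 libraries, at 5.99 and 6.24 FPKM.

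ZMAT3 (ENSG00000172667, chromosome 3, 178735011 to 178790067, minus strand), a zinc finger protein that acts on RNA splicing and stability, had the largest log2 fold change of the 9 genes. It was listed at 4.46 and 4.56 FPKM in shCtrl against 5.69 and 5.68 FPKM in shKIAA1429. Replicates differed by little, with a within-group SD at the 0.6005 percentile of all genes, and both shKIAA1429 libraries were the higher, on average 1.26 times shCtrl. The log2 fold change was 0.28 (SE 0.14, 95% interval -0.09 to 0.65) and did not pass the test (limma adjusted p = 0.934). That SE draws in part on the spread of all genes tested, while the within-group SD of ZMAT3 itself was 0.013 on the log2 scale. Both listed forms lay the same way, ZMAT3-201 at 2.60 and 2.68 FPKM in shCtrl against 3.56 and 3.15 FPKM in shKIAA1429, and ZMAT3-203 at 1.85 and 1.87 FPKM against 2.14 and 2.53 FPKM.

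RRM2B (ENSG00000048392), the p53-inducible small subunit of ribonucleotide reductase, was listed as a single transcript. Its level was 4.90 and 4.48 FPKM in shCtrl against 5.08 and 5.39 FPKM in shKIAA1429. Both shKIAA1429 libraries were the higher (log2 fold change 0.13, SE 0.15, 95% interval -0.25 to 0.52, limma adjusted p = 0.987), and the gap between the nearest libraries was smaller than that between the shCtrl replicates.

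**Figure D4:**
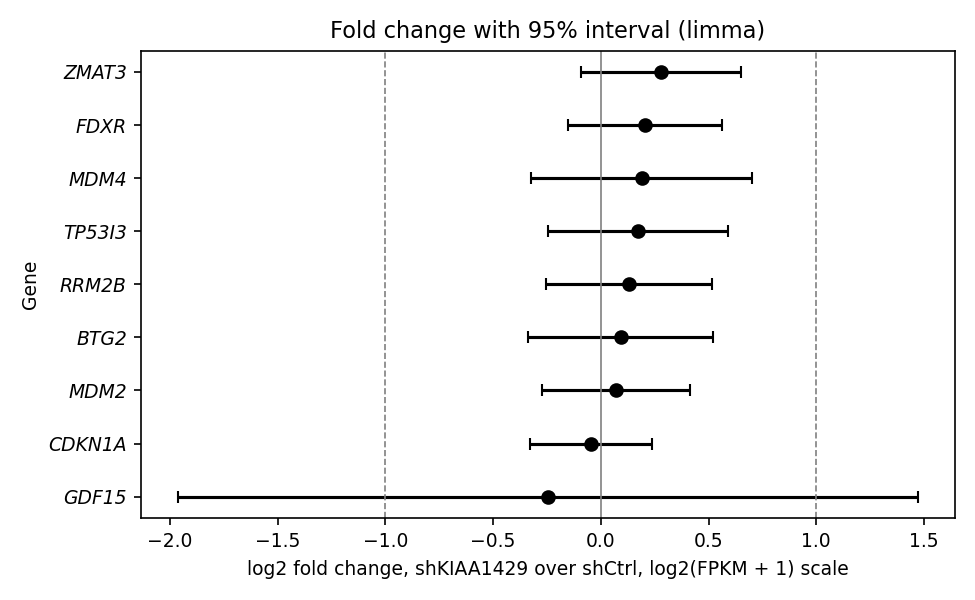
Fold change of each gene (log2, shKIAA1429 over shCtrl, on the log2(FPKM + 1) scale) with its 95% interval from limma, the dashed lines marking 1 in either direction. All intervals span 0, and that of GDF15, -1.96 to 1.47, is the widest.

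The wider pathway was read from 7 lists with 95 genes, of which 86 were tested under 87 gene identifiers. None of these was called changed, 46 had a log2 fold change above 0 and 41 below, and the median was 0.0098. For this and each list count below, the share above 0 over all genes tested was 48.1%. The shKIAA1429 libraries stood above the shCtrl libraries for 16 of the 87 and below for 15, beside 16.9% and 16.7% of all genes. An unadjusted p under 0.05 was found for 2, XPC and TOB1, beside 5.63% of all genes. The list of p53 regulators had 16 genes tested, with 12 above 0 and a median of 0.06, led by the acetyltransferase CREBBP at 16.0 and 16.7 FPKM in shCtrl against 22.9 and 18.7 FPKM in shKIAA1429 (log2 fold change 0.33, limma adjusted p = 0.924). The deubiquitinase USP7 followed (0.23, limma adjusted p = 0.990). Among 12 targets for the cell cycle and growth, 8 were above 0 with a median of 0.02. The stress sensor SESN2 differed most, at 49.4 and 16.6 FPKM in shCtrl against 48.8 and 32.0 FPKM in shKIAA1429 (0.45, limma adjusted p = 0.987), and the phosphatase PTP4A1 followed (0.43, adjusted p = 0.971).

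Among 18 apoptosis targets, 10 were above 0 with a median of 0.04. The death receptor TNFRSF10B was at 17.0 and 14.2 FPKM in shCtrl against 16.6 and 31.1 FPKM in shKIAA1429 (log2 fold change 0.52, limma adjusted p = 0.954), and PIDD1, a death domain scaffold, had 0.40 (adjusted p = 0.918). Of 7 DNA repair targets 3 were above 0, with a median of -0.03. The damage sensor XPC was at 9.41 and 10.3 FPKM in shCtrl against 13.1 and 13.3 FPKM in shKIAA1429 (0.39, limma adjusted p = 0.884). The sliding clamp PCNA lay far apart between the replicates of both groups, at 34.9 and 81.3 FPKM in shCtrl against 25.7 and 74.4 FPKM in shKIAA1429 (-0.28, limma adjusted p = 0.999).

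Of 9 identifiers for metabolism and autophagy, 3 were above 0 with a median of -0.09. SCO2, a cytochrome oxidase assembly factor, was listed under 2 identifiers whose positions overlap and whose log2 fold changes were -1.0 and 0.57 (limma adjusted p = 0.969 and 0.936), so the reads between them are uncertain. Of 9 secreted, matrix and membrane targets 5 were above 0 with a median of 0.05, the adhesion molecule NINJ1 having -0.28 and the decoy receptor TNFRSF10C 0.22 (limma adjusted p = 0.949 and 0.969). Among 17 relatives and partners of the 9 genes, 11 were below 0, with a median of -0.07. FDX2, a ferredoxin that takes electrons from FDXR, was at 14.2 and 12.9 FPKM in shCtrl against 5.30 and 11.4 FPKM in shKIAA1429 (-0.72, limma adjusted p = 0.921). TOB1, of the same family as BTG2, was at 11.9 and 13.6 FPKM in shCtrl against 9.53 and 6.17 FPKM in shKIAA1429 (-0.66, limma adjusted p = 0.882).

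**Figure D5:**
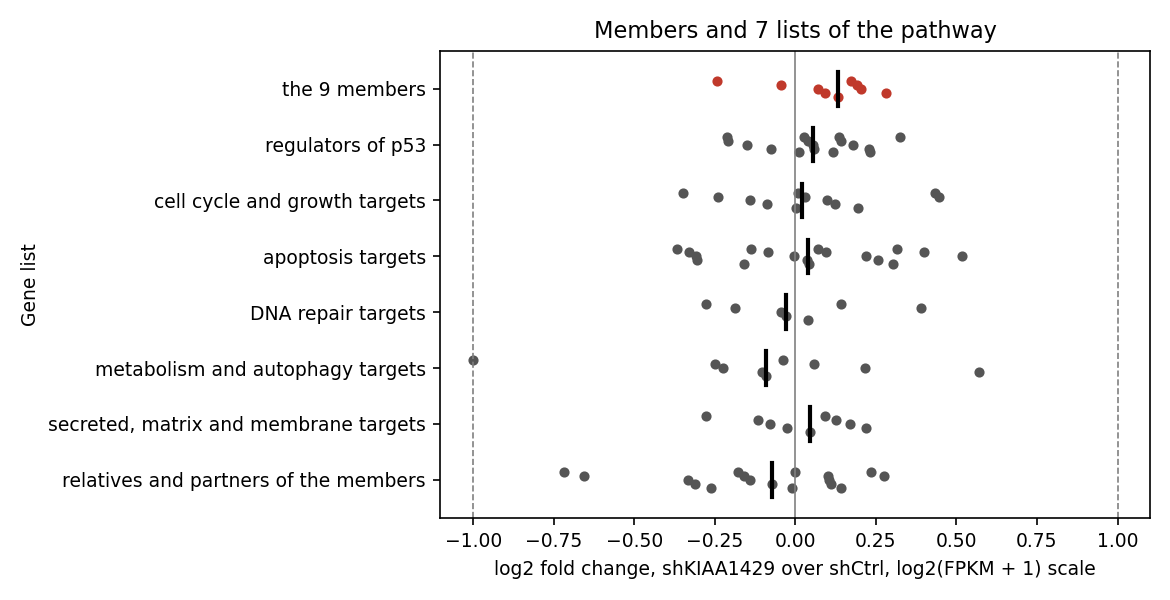
Log2 fold change (shKIAA1429 over shCtrl, log2(FPKM + 1) scale) of the 9 genes (red) and of the genes in 7 pathway lists (grey), 1 point per gene identifier, with a bar at each median and dashed lines at 1 in either direction. The medians lie between -0.09 and 0.13, and 1 identifier of SCO2 reaches -1.0.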

How the data were processed

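RNA was sequenced from 2 shCtrl and 2 shKIAA1429 libraries of HCCLM3 cells, grouped by their titles. The authors deposited FPKM per annotated transcript on hg19 (GRCh37); Bowtie2 2.1.0 is named in the submitters' processing notes and a TruSeq kit in the labels, whereas the study's methods name TopHat and a NEBNext kit, a difference that was not resolved. The tool that made the FPKM, its strand setting and its handling of multiple mapping are not given in the sources used here. Listed transcripts reached at least 0.504 FPKM in 1 library, so lower ones were not analysed here. FPKM were summed per gene identifier, and 108 symbols turned into dates were restored from the other files. log2(FPKM + 1) was fitted in R 4.3.3 by limma 3.58.1 (lmFit, eBayes with trend, two-sided, group only), with Benjamini-Hochberg adjustment over all genes, or all transcripts, that reached 1 FPKM or more in 2 or more libraries. The thresholds, adjusted p under 0.05 and absolute log2 fold change over 1, follow the study's methods, whose count test could not be repeated on FPKM. The fit was tested on simulated data.

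The 9 genes, the pathway lists and the marker lists were chosen with earlier results of these data known. Also named were VIRMA, the 2 genes of each pathway list with the largest absolute log2 fold change, and the 3 genes nearest to CDKN1A and to MDM2. Some items that these rules would name are not reported here and were left out of the list counts. Exons came from GENCODE 44 lifted to GRCh37, which held 97.2% of all listed transcripts and 39 of the 40 described. Alternatives were upper quartile and median ratio scaling, a replicate block, no filter or one on every sample, a pseudocount of 0.1, each replicate left out, a robust variance estimate, the most abundant transcript alone and either threshold alone. A sum over protein-coding transcripts was chosen after seeing the data. Plots used matplotlib 3.10.9.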

Additional observations from a re-analysis of the deposited data

How the results depend on the processing

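No gene passed both thresholds under the scaling, filter, pseudocount, robust or replicate block alternatives, and no transcript did without the filter, with the pseudocount of 0.1 or with the replicate block, the alternatives run for transcripts. With 1 library left out, 1 group holds a single library, so only fold changes are given for those fits. The histone gene HIST4H4, named after its values were seen, was at 1.85 FPKM in shCtrl replicate 2 and 137 to 168 FPKM elsewhere. Its log2 fold change was 2.98 with all 4 libraries and 5.78 without shCtrl replicate 1. With no library left out, the fold threshold alone gave 125 genes, 58 higher and 67 lower, and the adjusted p alone gave 0. The median over the 9 genes ran from 0.078 without shKIAA1429 replicate 1 to 0.18 without shCtrl replicate 1. With 1 library left out, when the lone sample is assumed to vary like the other group, the log2 fold change ran from -1.01 to 0.52 for GDF15, turning above 0 without shCtrl replicate 1 (0.52) and without shKIAA1429 replicate 2 (0.43). It ran from -0.050 (without shCtrl replicate 1) to 0.24 for BTG2, from -0.094 to 0.0029 (without shCtrl replicate 2) for CDKN1A and from -0.026 (without shKIAA1429 replicate 2) to 0.41 for MDM4. With the most abundant transcript alone it was -0.086 for MDM2, -0.44 for FDXR and -0.91 for CDKN1A, since reads of the other forms are left out. TP53I3, ZMAT3 and RRM2B kept their direction in all alternatives run, as did VIRMA (-0.80 to -0.26 with 1 library left out).

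The replicate numbers are shared labels and not stated to pair the samples; the deviations of the 2 pairs correlated at 0.32 across genes. With the replicate block, 0 genes passed, 1269 had an unadjusted p under 0.05 against 656 without it, and the fold change of GDF15 had an SE of 0.09 (adjusted p = 0.466). With 2 libraries per group and unknown depth, small changes of single genes could not be resolved.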
